A study of Homo sapiens with 4 samples.

Results

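Neuroendocrine differentiation is one of the routes by which prostate tumors escape antiandrogens. After knockdown of the lncRNA LOC730101, 9 genes tied to this differentiation were followed here. They were taken by name from the count table, and all 9 were among its 60606 genes. SYP, CHGA, ENO2 and NCAM1 are the markers, SOX2, INSM1, POU3F2 and ONECUT2 are transcription factors, and REST is a repressor. The cells were DaroR, the LNCaP prostate cancer line kept in 10 μM darolutamide, an antiandrogen. Both groups were DaroR cells transfected with siRNA at 20 nM, with control siRNA in 2 libraries (siControl) and with pooled siRNAs to LOC730101 in the other 2 (siLOC730101). Parental LNCaP cells were not analysed here, so that resistance itself was not compared, and all libraries came from a single resistant line.

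Neuroendocrine cells of the prostate store peptides in dense-core granules, which the chromogranins help to fill, and also have small vesicles with synaptophysin in their membrane. In cells that are not neuronal, REST binds a DNA element called RE1 beside neuronal genes and holds them silent with the help of corepressors and histone deacetylases. Luminal prostate cells make secretory proteins such as PSA instead, and in tumors that turn neuroendocrine these fall while factors such as INSM1 and POU3F2 rise.

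To look for the letters of RE1 beside the genes described, 5 kb on each side of the annotated start site was searched on GRCh37. The letters were TTCAGCACC followed by 2 free bases and GGACAGCGC, on both strands and with up to 3 mismatches in the 18 fixed letters. A match was found in 2 of the 9 genes, CHGA and SYP, and in 511 of 19869 protein-coding genes (2.57%). The fewest mismatches in the other 7 genes were 5 or 6. Of 17 genes known to be repressed by REST, most of them neuronal, 13 (76.5%) held a match. They were chosen as known targets, so that this share does not carry over to the 9 genes. The rest of the 17 held none, so that a gene without a match can still be a target of REST. A match of letters says nothing of whether REST bound there. The match of CHGA lay in its first intron, at chr14:93389868-93389887 on the plus strand, centred 383 bases beyond the start site, and had 0 mismatches. The match of SYP lay in its first intron, at chrX:49056582-49056601 on the minus strand, centred 60 bases beyond the start site, and had 2 mismatches, T2C and C18A, counted from 1 at the 5′ end of the element with the RE1 base first. GRIN1 and SYT4, a glutamate receptor subunit and a synaptotagmin from the list of REST-repressed genes, are shown beside them as expressed examples. Others of that list, such as VGF with 1 mismatch, were also expressed and held a match. The match of GRIN1, at chr9:140033712-140033731 on the plus strand, lay in the first exon and had 0 mismatches. That of SYT4, at chr18:40857259-40857278 on the minus strand, lay in the first exon and had 2 mismatches, C18A and G19A. Capitals mark the 18 fixed positions, with 5 bases of context on each side.
CHGA: gagttTTCAGCACCgcGGACAGCGCctccg
SYP: cgcgcTCCAGCACCgtGGACAGAGCccgcc
GRIN1: cccgcTTCAGCACCgcGGACAGCGCcggcc
SYT4: ttcccTTCAGCACCtcGGACAGAACacgca

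The microRNA miR-1-3p was examined together with LOC730101 in the study, so that its sites were also looked for. In the mature sequence from RefSeq (GRCh38.p14) the seed, bases 2 to 8, is in capitals. The match to the seed, ACATTCC, was searched in the annotated 3′ UTR of each gene on GRCh37. It was found in 3 of the 9 genes and in 2278 of 19381 protein-coding genes (11.8%). INSM1 held 1 match, at chr20:20351315-20351321, followed by A as in an 8mer site. POU3F2 held 1 match, at chr6:99284817-99284823. ONECUT2 held 1 match, at chr18:55154826-55154832, in a 3′ UTR of 14575 bases, where the rate over all 3′ UTRs would give 1.14 matches. REST, with 3692 bases, ENO2, with 897 bases, SYP, CHGA, NCAM1 and SOX2 held 0 matches. A match of letters says nothing of whether miR-1-3p bound there.
miR-1-3p: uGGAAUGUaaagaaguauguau
INSM1: ctgccactcttgACATTCCact
POU3F2: ttggttaccttcACATTCCcct
ONECUT2: ccactctcctagACATTCCcac

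The libraries held between 39213498 and 53368158 counts, and those of siLOC730101 were the shallower. LOC730101, listed as ENSG00000216775, had a normalized CPM (counts scaled to library size with TMM factors) of 47.4 and 50.6 in the siControl libraries and of 15.4 and 17.9 in the siLOC730101 libraries. The fitted log2 change was -1.56 with a standard error of 0.12 (edgeR, adjusted p = 4.34e-06). The luminal identity of the cells was checked with 12 genes, all of which passed the expression filter of edgeR. KLK3, which encodes PSA, had 376 CPM per kilobase of exon over the 4 libraries, and the metalloreductase STEAP2 had 266.9. The summed CPM of the 12 genes was 10143 to 11098 in siControl and 10797 to 10945 in siLOC730101. Of 19 neuroendocrine factors and drivers, 5 were at 0 counts in all 4 libraries, among them NEUROD1, FOXA2 and NKX2-1. However, 10 of the 19 passed the filter, with SOX4 at 112.6 and HES6 at 46.2 CPM over the 4 libraries. Of markers of other cells, KRT5 and TP63 of basal cells, COL1A2 and LUM of stroma, and PTPRC and CD3E of leukocytes were at 0 counts in all 4 libraries. The summed CPM ranged from 0.292 to 0.632 for 4 basal genes (among them KRT14 and KRT15), from 12.6 to 17.2 for 5 stromal genes (among them DCN), of which COL1A1 and PDGFRB gave nearly all, and from 0 to 0.256 for 4 leukocyte genes (among them CD14).

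The 9 genes fell into expressed, weakly expressed and undetected genes. ENO2 and REST were the highest, ONECUT2 lay below them, and SYP was low. NCAM1 was lower still per kilobase, with 24 to 64 counts. POU3F2 and SOX2 were near the limit of detection, and CHGA and INSM1 had 0 counts in every library. The levels below are normalized CPM per kilobase of exon, which allows genes of different lengths to be compared. In bulk RNA, fewer cells that express a gene and less RNA per cell cannot be told apart. The values rest on the union of annotated exons, and the transcripts that these cells use may be shorter.

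**Figure D1:**
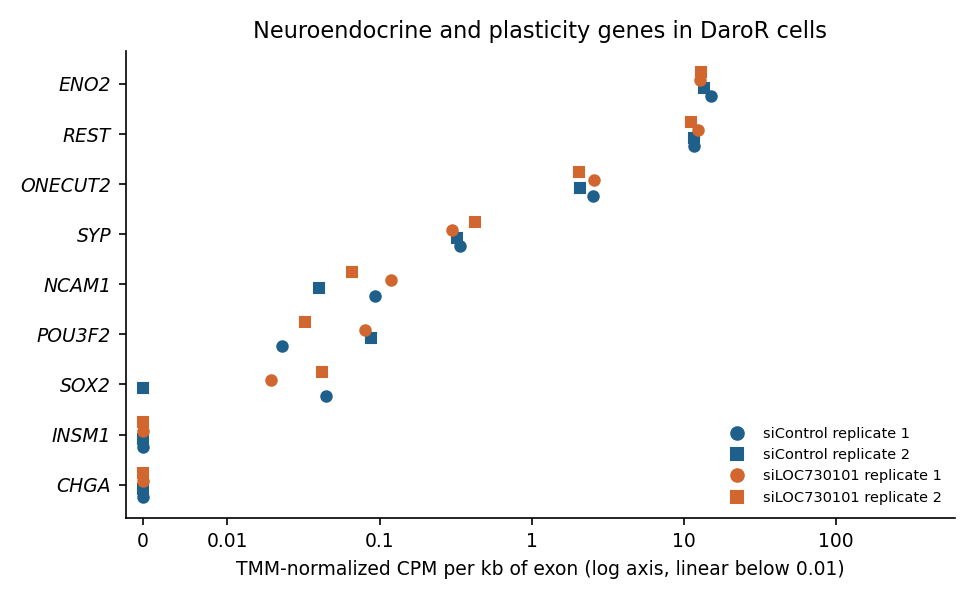
Normalized CPM per kilobase of exon (horizontal, log axis that is linear below 0.01) of the 9 genes in the 4 DaroR libraries, 1 point per library. ENO2 and REST lie between 11.1 and 15.1 in every library, while CHGA and INSM1 lie at 0.

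Among the markers, ENO2, the neuronal enolase of glycolysis, had 15.1 and 13.4 CPM per kilobase in siControl and 12.7 and 12.9 in siLOC730101. It was the highest of the 9 genes in every library and lay at percentile 82.2 of the genes tested. Both siLOC730101 libraries lay below both siControl libraries, but the groups did not overlap in 41.7% of all genes tested. SYP, the synaptophysin of synaptic vesicles, had counts of 128 and 105 under siControl and of 86 and 112 under siLOC730101, which gave 0.339, 0.322, 0.300 and 0.423 CPM per kilobase. The highest and the lowest SYP level were both in siLOC730101, so that the groups overlapped. NCAM1, the adhesion molecule also known as CD56, had counts of 64 and 24 under siControl and of 62 and 32 under siLOC730101, and the groups overlapped. CHGA, chromogranin A of the dense-core granule, had 0 counts in all 4 libraries. Over the 2 libraries of a group, a count of 0 allows up to 3 counts at 95%, or 0.0297 CPM in siControl and 0.0380 CPM in siLOC730101. This is an upper limit only, and an interval with both ends, as given for SOX2 below, would reach higher.

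Among the transcription factors, ONECUT2, a cut-homeodomain factor that can drive neuroendocrine features in prostate cancer, had counts of 2254 and 1613 under siControl and of 1750 and 1292 under siLOC730101. This gave 2.52, 2.08, 2.57 and 2.06 CPM per kilobase, so that the libraries of replicate 1 were high and those of replicate 2 low in both groups, which overlapped. ONECUT2 lay at percentile 48.4 of the genes tested. POU3F2, the neural factor also known as BRN2, had counts of 6 and 20 under siControl and of 16 and 6 under siLOC730101. SOX2, a factor of stem cells and neural progenitors, had counts of 6 and 0 under siControl and of 2 and 4 under siLOC730101. The 6 counts of SOX2 in each group correspond to 0.0595 CPM in siControl (exact Poisson 95% interval 0.0218 to 0.129) and 0.0759 CPM in siLOC730101 (0.0279 to 0.165), so that no difference was detectable at this depth. INSM1, a zinc-finger factor of endocrine and neuroendocrine cells, had 0 counts in all 4 libraries, with the same limits as CHGA.

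REST had counts of 5891 and 5110 under siControl and of 4755 and 3981 under siLOC730101. This gave 11.58 and 11.60 CPM per kilobase in siControl and 12.3 and 11.1 in siLOC730101, percentile 79.65 of the genes tested. The siControl libraries lay between those of siLOC730101. Within a library, REST was between 0.828 and 0.953 times the level per kilobase of RCOR1, its corepressor CoREST. Counts per gene do not separate the full-length REST from the shorter neuronal splice form, whose splicing factor SRRM4 had counts of 6 and 0 under siControl and of 2 and 2 under siLOC730101.

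In the order of levels, ENO2 was 1.03 to 1.30 times REST within a library, and the range of ENO2 over the 4 libraries (12.7 to 15.1) did not overlap that of REST (11.1 to 12.3). REST was 4.60 to 5.57 times ONECUT2, and ONECUT2 was 4.86 to 8.58 times SYP. The ranges of NCAM1 (0.0403 to 0.118), POU3F2 (0.0227 to 0.0875) and SOX2 (0 to 0.0442) overlapped. Within each library NCAM1 lay above SOX2, with 24 to 64 counts against 0 to 6, while the place of POU3F2 varied between libraries. All 12 counts of these 3 genes were even numbers, 1 of them 0, and in each library 66.0% to 70.1% of the counts from 1 to 20 were even. If both mates of a pair were counted apart, a count of 6 would be 3 fragments, and the Poisson intervals, which cover counting error only, would be too narrow. The CPM profiles nearest to REST over the 4 libraries were those of SRSF2, PNPT1 and AFF3, with root mean square differences of 0.022, 0.022 and 0.025 on the log2 scale. Nearest to ENO2 were MYO9B (0.035), EPB41L5 (0.050) and DUXAP9 (0.051), and with 4 libraries this likeness is mostly one of level.

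Reads of overlapping genes could bear on these levels, because the counting had neither a strand option nor an option to keep reads that touch more than 1 gene. On GRCh38, ENO2 (chr12:6913745-6923698), CHGA (chr14:92923150-92935285), SOX2 (chr3:181711925-181714436), INSM1 (chr20:20368104-20370949), POU3F2 (chr6:98834574-98839458) and ONECUT2 (chr18:57435374-57491298) shared 0 exon bases with another gene of the table. REST, at chr4:56907876-56966808, shared 81 of its 9408 exon bases (0.86%) with NOA1 on the other strand. SYP, at chrX:49187815-49200218, shared 0.97% with SYP-AS1, which had 0 counts. NCAM1, at chr11:112961247-113278436, shared 8.09% of its exon bases with ENSG00000247416, NCAM1-AS1 and TTC12-DT, all on the other strand. TTC12-DT, which covers 1.47% of the exon bases of NCAM1, had 20 to 29 counts. These counts were assigned to TTC12-DT alone, so that they do not measure reads shared with NCAM1. How many reads of NCAM1 were left out because of these overlaps is not shown by the counts.

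For ENO2, NCAM1 and SYP a paralog was expressed more strongly than the neuroendocrine gene. ENO1, the enolase of most tissues, was 16.8 to 21.3 times the level per kilobase of ENO2, and ENO2 was in turn 3.44 to 3.95 times ENO3, the muscle form. NCAM2 was 477 to 1541 times NCAM1, with 59.6 CPM per kilobase over the 4 libraries. SYPL1 and SYNGR2, relatives of synaptophysin in other vesicles, were 128 to 201 times and 449 to 559 times SYP, while SYPL2 and SYNPR, also of that family, lay below SYP with 0 to 4 and 0 to 2 counts. ONECUT2 was the expressed gene of its family, with 0 to 32 counts for ONECUT1 and 0 counts for ONECUT3. CHGB, SOX1, SOX3, INSM2, POU3F3 and POU3F4 had 0 counts in all 4 libraries. Values between close paralogs depend on how reads were placed, which the counts do not show.

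**Figure D2:**
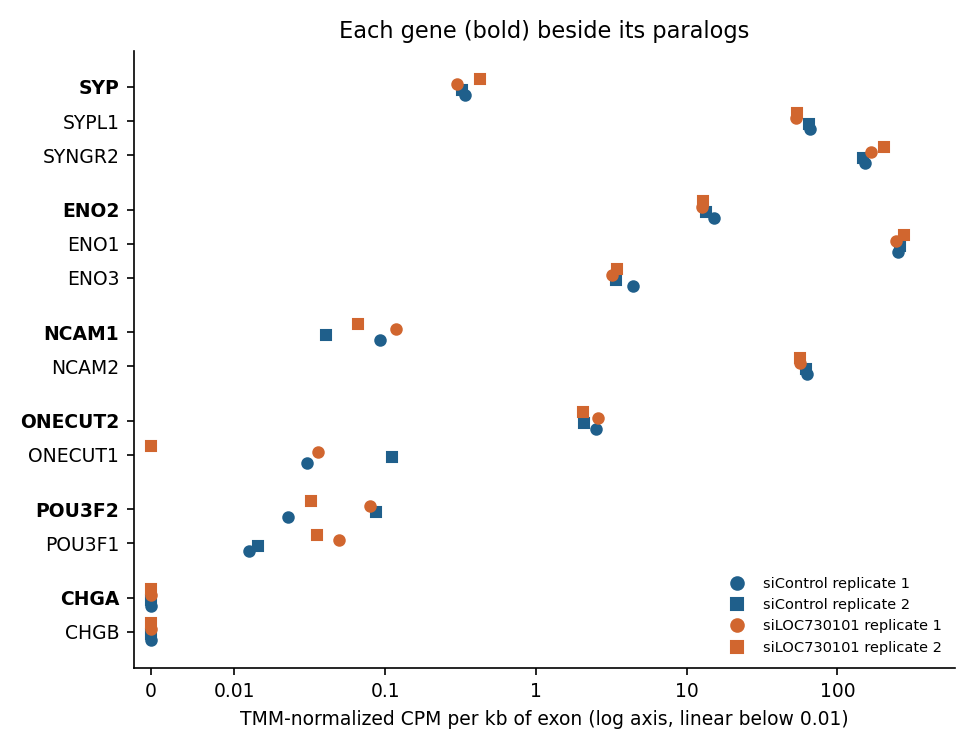
Normalized CPM per kilobase of exon (horizontal, log axis that is linear below 0.01) of 6 of the genes (bold) and their paralogs in the 4 libraries, 1 point per library. ENO1, NCAM2, SYPL1 and SYNGR2 lie above ENO2, NCAM1 and SYP in every library, and ONECUT2 lies above ONECUT1.

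The promoter sequences of RefSeq (GRCh38.p14, from 250 bases before to 50 after the start) were read for what the expressed genes share. Of the 9 genes, 7 had an entry, and REST had 2. The number of CpG dinucleotides was 44 and 46 for the REST promoters, 38 for ENO2, 35 for SYP, 24 for ONECUT2, POU3F2 and CHGA, and 20 for SOX2, where the median of 35116 promoters was 14. CpG number did not order the genes by level, since ONECUT2 was expressed and CHGA was not at the same count. NCAM1 and INSM1 had no entry.

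Knockdown of LOC730101 was then compared with siControl over the 19349 genes that passed the filter of edgeR, of which 6 were among the 9 genes. CHGA, INSM1 and SOX2 did not pass and were not tested. In edgeR's quasi-likelihood test none of the 6 genes passed an adjusted p of 0.05 (0 of 6), whereas 55 of all genes tested did (0.284%), 41 higher (0.212%) and 14 lower (0.0724%). With library sizes alone in place of TMM scaling, the numbers over all genes were 58 higher and 35 lower. An unadjusted p under 0.05 was found in 0 of the 6 genes and in 10.8% of all genes tested, with 6.43% higher and 4.39% lower. DESeq2 gave an adjusted p to REST, ENO2 and ONECUT2, of which 0 lay under 0.05, beside 3.12% of all genes given one. It gave none to the weakly expressed SYP, NCAM1, POU3F2 and SOX2, nor to some low genes of the lists described next. The groups did not overlap in 1 of the 6 genes, ENO2, and in 41.7% of all genes tested. The median log2 fold change of the 6 genes was 0.028, beside -0.0021 for all genes tested. The smallest two-sided p of an exact permutation test is 0.333 for 2 libraries against 2.

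The mean normalized CPM of REST was 109.1 ± 0.14 (SD, n = 2) with siControl and 110.3 ± 7.69 (SD, n = 2) with siLOC730101. Against siControl, siLOC730101 gave a log2 change of 0.016, with a standard error of 0.083 (edgeR, adjusted p = 0.974), with a 95% interval from -0.16 to 0.19, which spans a decrease of 10.5% and an increase of 14.3%. Its direction depended on the scaling and on siLOC730101 replicate 1, without which it was -0.048. ENO2 had 61.1 ± 5.02 (SD, n = 2) with siControl and 54.7 ± 0.73 (SD, n = 2) with siLOC730101. For ENO2 the log2 change was -0.16 with a standard error of 0.094 (edgeR, adjusted p = 0.582), with a 95% interval from -0.36 to 0.041. It was the one gene of the 6 whose direction held under every alternative run, from -0.24 without siControl replicate 2 to -0.072 without siControl replicate 1, with adjusted p-values between 0.476 and 0.924 in edgeR and DESeq2. The siLOC730101 libraries held 80.4% of the counts of siControl on average, and the part of depth in the values of ENO2 was not tested. ONECUT2 had 38.1 ± 5.12 (SD, n = 2) with siControl and 38.3 ± 6.06 (SD, n = 2) with siLOC730101, with a log2 change of 0.0087 with a standard error of 0.13 (edgeR, adjusted p = 0.994) and a 95% interval from -0.26 to 0.28. The log2 change of ONECUT2 moved to -0.15 without siLOC730101 replicate 1, -0.12 without siControl replicate 2, and to 0.16 at the highest. Over these 3 genes the intervals ran from 0.779-fold at the lowest, for ENO2, to 1.21-fold at the highest, for ONECUT2.

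SYP had 2.31 ± 0.088 CPM (SD, n = 2) with siControl and 2.52 ± 0.61 CPM (SD, n = 2) with siLOC730101. The fitted log2 change was 0.13 with a standard error of 0.33 (edgeR, adjusted p = 0.939), with a 95% interval from -0.58 to 0.84, and it was -0.14 without siLOC730101 replicate 2. NCAM1 had 0.848 ± 0.47 CPM (SD, n = 2) and 1.18 ± 0.47 CPM (SD, n = 2), a log2 change of 0.47 with a standard error of 0.57 (edgeR, adjusted p = 0.844) with an interval from -0.75 to 1.68. It ranged from -0.0060 without siLOC730101 replicate 1, and -0.0044 without siControl replicate 2, to 1.20. POU3F2 had 0.269 ± 0.22 CPM (SD, n = 2) and 0.274 ± 0.16 CPM (SD, n = 2), and its interval, from 0.211-fold to 5.00-fold, was too wide to show anything short of a large change. Its log2 fold change of 0.039 was -0.74 without siLOC730101 replicate 1, -0.63 without siControl replicate 1 and 1.29 at the highest.

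**Figure D3:**
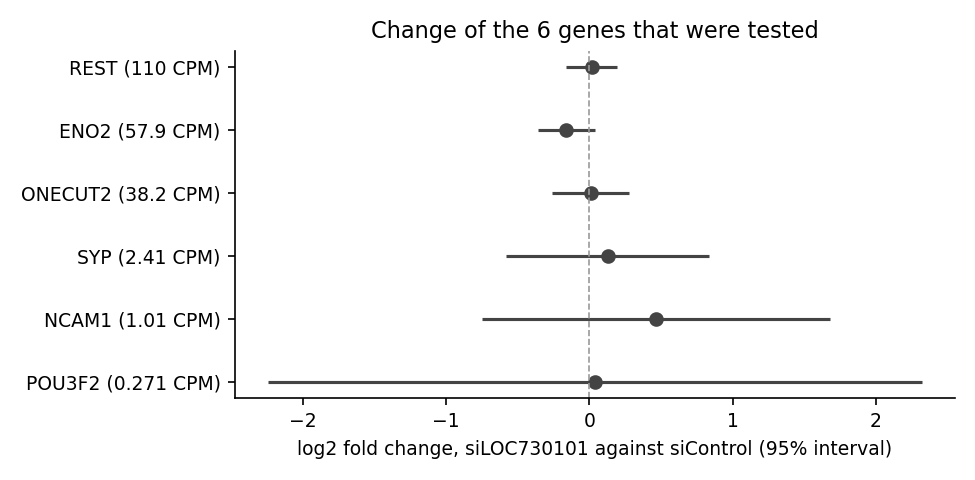
Log2 fold change, siLOC730101 against siControl (points, horizontal axis), with 95% intervals from edgeR (lines) for the 6 genes that were tested, 2 libraries in each group, ordered by mean normalized CPM. All 6 intervals include 0, and they widen from REST at the top to POU3F2 at the bottom.

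Other genes of the neuroendocrine program were read from lists of known function. Of 18 further secretory and neuronal markers, 5 were tested, 4 (CHGB, SCG5, CALCA and STMN2) had 0 counts in every library, and 0 of those tested passed an adjusted p of 0.05 in edgeR or DESeq2, with 0 at an unadjusted p under 0.05. CPE, the carboxypeptidase that trims prohormones, was well expressed with 242.2 ± 10.4 CPM (SD, n = 2) with siControl and 250.4 ± 21.1 CPM (SD, n = 2) with siLOC730101, and a log2 change of 0.048 (edgeR, adjusted p = 0.899). DDC, which makes dopamine and serotonin, had a log2 fold change of -0.020, and VGF, a granule peptide, of 0.38, with adjusted p-values of 0.985 and 0.620 in edgeR. Of 19 further transcription factors and drivers, 10 were tested, and 0 passed an adjusted p of 0.05 in edgeR and 1, DLL3, in DESeq2, with 3 higher and 0 lower at an unadjusted p under 0.05 in edgeR. Over all genes tested, that cut was passed by 6.43% higher and 4.39% lower. The list median was 0.12. SOX4, a progenitor factor, had a log2 fold change of 0.10 and AURKA, a mitotic kinase, of -0.25, with adjusted p-values of 0.705 and 0.462 in edgeR.

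The 3 genes at an unadjusted p under 0.05 were DLL3, HES6 and ISL1, of which DLL3 and ISL1 are named because of their values. DLL3, an inhibitory Notch ligand on neuroendocrine tumor cells, had counts of 542 and 429 under siControl and of 604 and 586 under siLOC730101, or 9.60 ± 0.61 CPM (SD, n = 2) and 15.1 ± 0.52 CPM (SD, n = 2). For DLL3 the log2 change was 0.65 with a standard error of 0.16 (edgeR, adjusted p = 0.104). Its siLOC730101 libraries both lay above both siControl libraries, but the groups did not overlap in 41.7% of all genes tested. DLL3 was past the threshold with DESeq2 (adjusted p = 0.0384), without an expression filter (0.0194 in edgeR), and without siLOC730101 replicate 1 (0.0219 in edgeR), and over all alternatives its adjusted p lay between 0.00704 and 0.247. HES6, a cofactor of neurogenic factors, had 41.1 ± 2.16 CPM (SD, n = 2) with siControl and 51.3 ± 5.84 CPM (SD, n = 2) with siLOC730101, with a log2 change of 0.32 (edgeR, adjusted p = 0.234), which passed in edgeR without siLOC730101 replicate 1 (adjusted p from 0.00511 there to 0.768 over the alternatives). ISL1, a LIM-homeodomain factor, had counts of 75 and 60 under siControl and of 114 and 89 under siLOC730101, with a log2 change of 0.94 (edgeR, adjusted p = 0.332).

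The partners and targets of REST were compared in the same way. All 20 cofactors and regulators of REST were tested, with 14 below 0, 6 above 0 and a median log2 fold change of -0.036. In edgeR and in DESeq2 0 of the 20 passed an adjusted p of 0.05, and at an unadjusted p under 0.05 there were 2 higher (HMG20B and CTDSP2) and 1 lower, beside 10.8% of all genes tested in either direction. HMG20B, a subunit of the CoREST complex, had a log2 fold change of 0.22, HDAC1, a histone deacetylase, of -0.014 and USP7, a deubiquitinase that stabilizes REST, of -0.10, with adjusted p-values of 0.291, 0.977 and 0.696 in edgeR. HMG20B was past the threshold without siLOC730101 replicate 1 (edgeR, adjusted p = 0.00199, up to 0.818 under the other alternatives). Of the 17 genes repressed by REST, 9 were tested, and 0 passed in edgeR or DESeq2, with 0 at an unadjusted p under 0.05 and a median of -0.092. SYT4 had 38.9 ± 2.07 CPM (SD, n = 2) with siControl and 36.5 ± 3.78 CPM (SD, n = 2) with siLOC730101, and GRIN1 had 19.9 ± 2.02 CPM (SD, n = 2) and 17.9 ± 0.73 CPM (SD, n = 2). The summed CPM of the 17 genes was 88.7 and 88.8 in siControl and 89.8 and 88.2 in siLOC730101. SYT4, CELSR3 and GRIN1 gave most of this sum, with log2 fold changes of -0.092, 0.23 and -0.15. It therefore says little of the weakly expressed genes of the list.

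Of 14 Polycomb and DNA methylation genes, all tested, 10 were below 0 with a median of -0.12, 0 passed in edgeR or DESeq2, and 2 were lower at an unadjusted p under 0.05, EZH2 and DNMT1, which are named because of their values, beside 4.39% lower over all genes tested. EZH2, the methyltransferase of the Polycomb complex, had 91.9 ± 3.80 CPM (SD, n = 2) with siControl and 76.5 ± 7.02 CPM (SD, n = 2) with siLOC730101, with a log2 change of -0.26 (edgeR, adjusted p = 0.254), and it was past the threshold without siLOC730101 replicate 1 (edgeR, adjusted p = 0.00763, up to 0.711 under the other alternatives). RBBP4, RBBP7 and SUZ12, the highest of the list, had log2 fold changes of -0.10, 0.16 and -0.052. Of 12 Notch genes 11 were tested, with a median of -0.066, 0 passed in edgeR or DESeq2, and 2 were lower at an unadjusted p under 0.05, NOTCH1 (-0.24) and NOTCH2 (-0.25), which are named because of their values, beside the same 4.39%. JAG2, HES1 and NOTCH3 had log2 fold changes of -0.066, 0.021 and -0.17. Of 17 stem and mesenchymal genes 11 were tested, with a median of -0.11, and 0 passed in edgeR or DESeq2, with 3 higher (SNAI2, TWIST1 and SOX9) and 1 lower (SNAI1) at an unadjusted p under 0.05, beside 6.43% and 4.39% over all genes tested. CDH1, the epithelial cadherin, had a log2 fold change of -0.11, FN1 of -0.13 and SOX9 of 0.22, while CDH2 and ZEB2 had 0 counts in all 4 libraries. In the luminal list 0 of 12 genes passed in edgeR or DESeq2, with 2 higher (among them KRT8) and 2 lower (SLC45A3 and FOLH1) at an unadjusted p under 0.05, beside the same shares of 6.43% and 4.39%, and a median of 0.075. KLK3 had a log2 fold change of 0.15 and STEAP2 of -0.064. Without siLOC730101 replicate 1, KLK3, KRT8, NOTCH2 and FN1 also passed an adjusted p of 0.05 in edgeR, and SLC45A3 passed without siLOC730101 replicate 2.

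Among the paralogs, 5 of 16 were tested, 0 passed in edgeR, and 1 was higher (SYNGR2) and 2 were lower (SYPL1 and NCAM2) at an unadjusted p under 0.05, beside 6.43% and 4.39% over all genes tested. The median log2 fold change of the 5 paralogs was -0.15. SYNGR2 had a log2 change of 0.30 (edgeR, adjusted p = 0.152) and SYPL1, named because of its value, of -0.28 (adjusted p = 0.131, edgeR), and both passed with DESeq2 (adjusted p of 0.0164 and 0.0127), and in edgeR without an expression filter and without siLOC730101 replicate 1. Over the alternatives the adjusted p lay between 8.17e-09 and 0.496 for SYNGR2 and between 0.00945 and 0.426 for SYPL1, which also passed without siLOC730101 replicate 2. ENO1, with a log2 fold change of 0.019, and NCAM2, with -0.15, did not pass in either test.

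**Figure D4:**
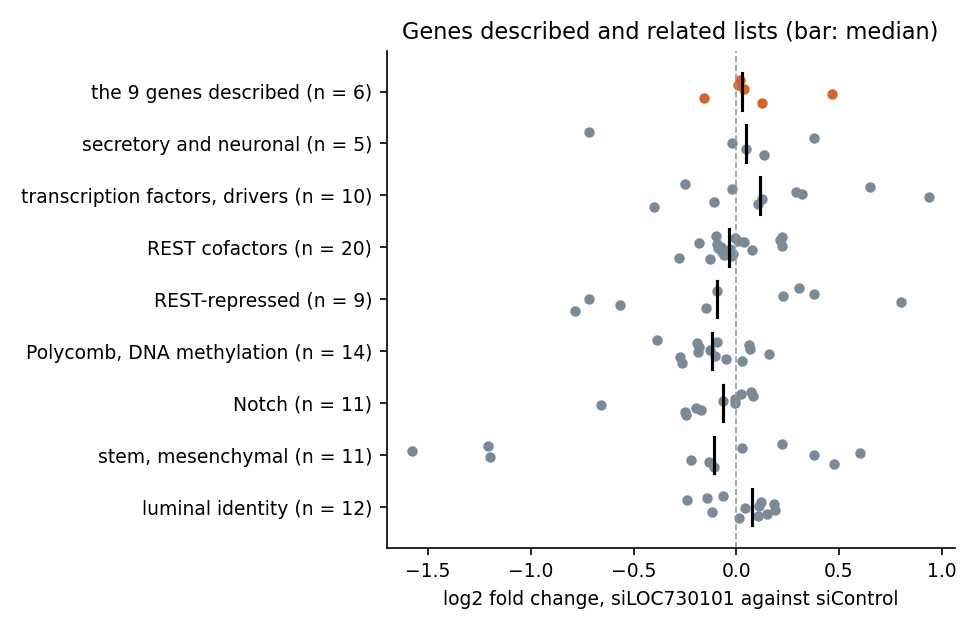
Log2 fold change, siLOC730101 against siControl (horizontal), of each tested gene in the set described here (top row, 6 genes) and in 8 related lists, 1 point per gene, with the list median as a bar. The medians of these lists, which do not include the paralogs, lie between -0.12 and 0.12, and no gene shown passed an adjusted p of 0.05 in edgeR.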

How the data were processed

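Poly(A) RNA of 4 DaroR libraries was sequenced by the authors. The deposited values are counts per gene name that the authors obtained with featureCounts 2.0.1, without normalization. The file header names hg38 and gencode version 41 and has no paired-end, strand or multi-overlap option. The methods of the paper name STAR with hg19, and the processing notes of the submitters name BWA with hg38, so that the aligner is uncertain. All 4 count columns were used, and 0 others held values of samples. The replicate numbers come from the sample labels, which do not say whether the cultures were separate, so that p-values measure the spread between these libraries.

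The test was edgeR 4.0.16 under R 4.3.3 (filterByExpr, TMM, glmQLFit and glmQLFTest at their defaults, condition as the only term), with Benjamini-Hochberg adjustment over the 19349 genes tested. Standard errors are the log2 fold change over the root of F, with intervals from its t distribution. LOC730101 was found in the table by its RefSeq position on GRCh38, chromosome 6 from 52664401 to 52669153. In simulated data the fit called 123 of 200 genes changed 1.5-fold and 150 of 200 changed 2-fold, with 8 and 12 false calls. The changed genes left out the most weakly expressed. DESeq2 1.42.0, other scalings, no filter, halved counts, the replicate block, the legacy method off and leaving out each library were the alternatives. Sequences were read with Python 3.11.15, sites with GRCh37 and a gencode annotation lifted to it, and coordinates were not converted between builds.

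The genes described and the lists were chosen with earlier results of these data known. Besides the 9 genes, LOC730101 and the 3 nearest profiles of REST and ENO2, the genes named are the 3 of each list with the highest CPM per kilobase, genes past the threshold, and genes whose exons overlap. RCOR1, SRRM4, CELSR3, further paralogs, and genes at 0 counts or at an unadjusted p under 0.05 were named after their values were seen. Of the 17 REST-repressed genes and the 18 markers, 6 are shared. Some genes of the lists are counted in them but are not reported by name here.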

Additional observations from a re-analysis of the deposited data

How the results depend on the processing

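None of the 6 genes tested passed an adjusted p of 0.05 under any alternative run, where DESeq2 gave one to REST, ENO2 and ONECUT2, and ENO2 kept its direction in all of them. The number of genes called over the whole table was 55, and it was 93 with library size only, 437 with no filter beyond 1 count, 297 with DESeq2, 111 with the legacy method off, 148 with halved counts and 652 with the replicate block. It ranged from 137 to 1195 when each library was left out, highest without siLOC730101 replicate 1, where the lone library is assumed to vary like the other group. The replicate numbers were not taken to pair the libraries, because deviations of libraries with the same number had a correlation of -0.00090 over all genes tested. That value does not speak for single genes such as ONECUT2, where replicate 1 was the higher in both groups. The block changed no call among the 6 genes, while of the related lists it called DLL3, HES6, SYPL1, SYNGR2 and SLC45A3. REST was -0.020 with library size only and -0.014 with upper-quartile factors, and ONECUT2 was -0.026 and -0.021. With each library left out, the log2 fold change ranged from -0.14 to 0.36 for SYP, from -0.0060 to 1.20 for NCAM1, from -0.74 to 1.29 for POU3F2, from -0.15 to 0.16 for ONECUT2 and from -0.048 to 0.083 for REST. The cause was not tested. POU3F2 did not pass the filter with halved counts and could not be fitted there. Depth limits SOX2, POU3F2 and NCAM1, whose counts do not resolve a moderate change.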
